A study of Mus musculus with 21 samples.

Results

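The collagen genes of the cecal wall were examined by RNA sequencing in mice fed broccoli powder on a Western-type diet. The members were all genes whose symbol has the form Col, a number, the letter a and a number, with at least 1 count in any library. This gave 43 genes of the 25361 listed, of which 19480 had a count. Col10a1, of hypertrophic cartilage, had 0 counts in all 21 libraries. C57BL/6 mice, an inbred laboratory strain, were 3 weeks old at the start and ate the Total Western Diet, a rodent diet modelled on American nutrient intake, for 6 weeks. They then ate that diet with 0%, 0.5%, 1.0% or 2.5% broccoli powder for 3 weeks. The 0% group held 6 mice and each broccoli group 5, and the Western diet was shared by all of them, so no mouse on ordinary chow enters. The RNA came from whole cecum, a blind sac between ileum and colon, so that epithelium, muscle, nerves and vessels were mixed. In such bulk tissue fewer cells of a type and less RNA per cell cannot be told apart.

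Collagens are the main structural proteins of the extracellular matrix. Their alpha chains wind into a helix, and types I, III and V pack into fibrils that carry load in the submucosa. Type IV forms the sheet-like network of basement membranes under epithelium and around muscle and vessels, type VI forms beaded filaments around cells, and other members sit on fibril surfaces or span the cell membrane. In the gut wall fibroblasts and smooth muscle cells are the best known producers, and excess fibrillar collagen is a mark of intestinal fibrosis.

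Library totals ran from 28514263 to 58594569 counts, and mitochondrially encoded transcripts took 22.1% to 31.8% of them. The labelled tissue was checked with markers. Epithelial genes (11 listed, all with counts) summed to between 5274 and 7575 CPM (counts scaled to the library total, with TMM factors) in a library, and the 11 smooth muscle genes with counts to between 2438 and 5770 CPM. Libraries stood apart in one respect. Markers of small bowel absorptive and Paneth cells, which the cecum should hold at low levels, had a mean above 4 on the log2 CPM scale in 6 libraries, with a lowest value of 4.02 and a highest of 6.41. Those libraries were 0% replicate 5, 0.5% replicates 1 and 4, 1.0% replicate 1, and replicates 1 and 2 at 2.5%. In the remaining 15 the mean ran from 1.87 to 2.85. The diet results whose call changed without those 6 libraries are given both ways below.

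Collagen transcripts were a small share of this messenger RNA. They took 0.083% ± 0.0122 (SD, n = 21) of all counts, from 0.0598% in 2.5% replicate 4 to 0.105% in 0% replicate 5. By diet the share was 0.0915% ± 0.0123 at 0% (n = 6), 0.0802% ± 0.00923 at 0.5%, 0.0803% ± 0.00774 at 1.0% and 0.0781% ± 0.0159 at 2.5% (n = 5 each). The groups overlapped, and the 2.5% group held both the lowest library of all and one at 0.0992%. With mitochondrially encoded transcripts left out of the total, the share over all libraries was 0.112%.

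Levels between genes are compared here only per length, as TPM, which divides counts by the union of a gene's exons and scales every library to the same total. The 43 genes summed to 240.4 ± 39.99 TPM (SD, n = 21). Fibril-forming genes made up 26.9% of this, beaded filament genes 26.03% and basement membrane network genes 25.4%, so these families were nearly equal on this scale. With the longest transcript as the length they were not, since the shares of the summed mean levels were then 33.4%, 25.3% and 21.4%. Transmembrane collagens held 8.46%, fibril-associated collagens 6.51%, multiplexins 3.55% and the short-chain network of type VIII 2.50%. Col1a1, Col1a2 and Col3a1, the chains of the load-bearing type I and III fibrils, together held 19.4%, with a range of 14.7% to 25.1% over libraries. Col6a1, a chain of type VI filaments, was the highest member at 36.2 ± 6.54 TPM, and stood at rank 2166 among all genes of the table.

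**Figure D1:**
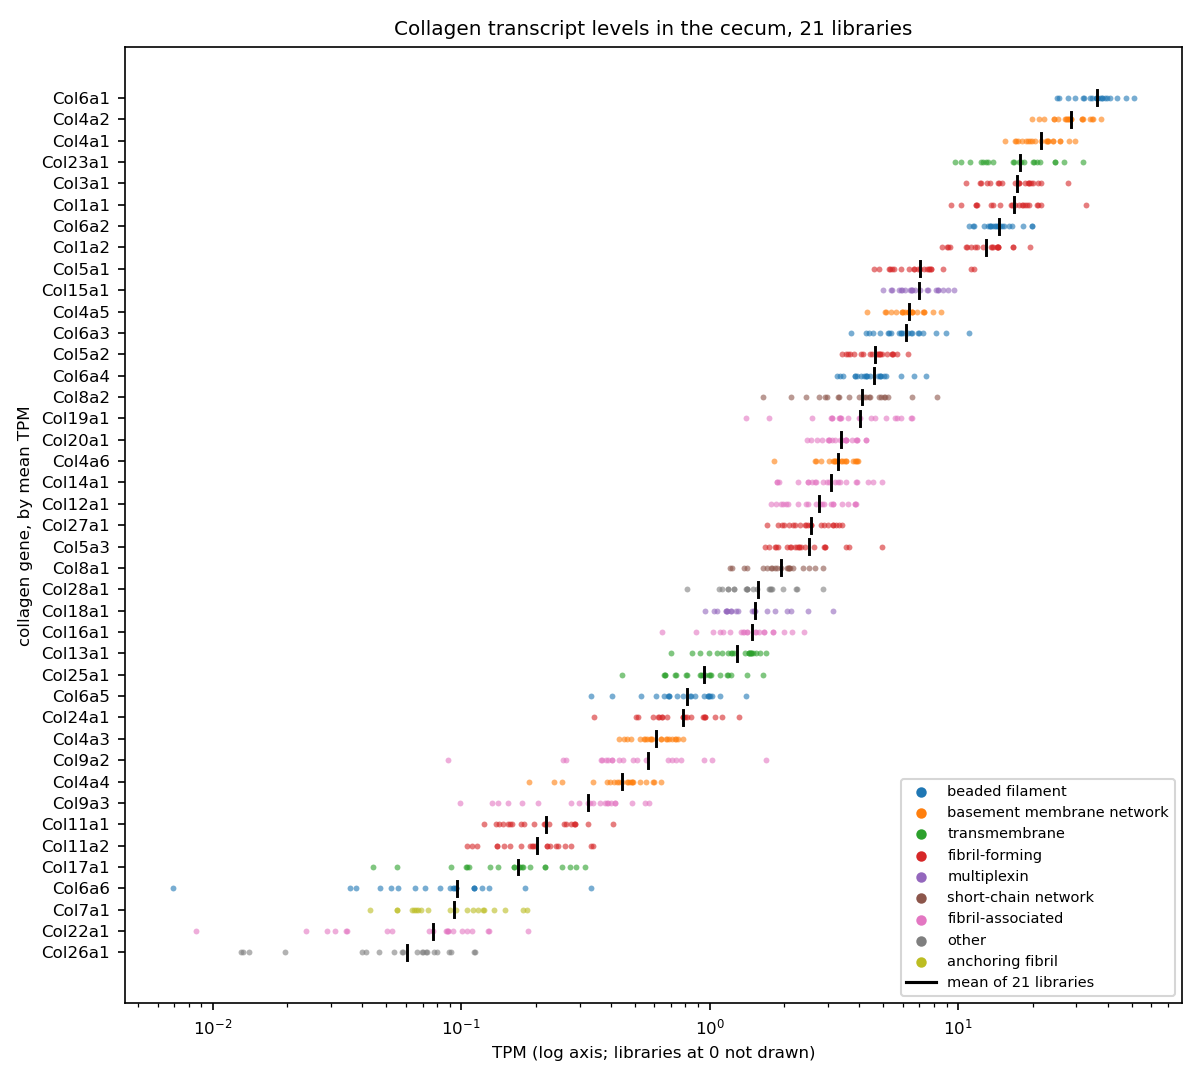
TPM of each collagen gene (log axis, 1 point per library, 21 libraries) with the mean as a bar, ordered by mean and coloured by role; members with a mean under 0.05 TPM and values of 0 are not drawn. Col6a1, Col4a2 and Col4a1 lead at 36.2, 28.4 and 21.6 TPM, and the points spread widely in the lowest genes.

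After Col6a1 came the basement membrane chains Col4a2 (28.4 ± 4.66 TPM) and Col4a1 (21.6 ± 3.82 TPM), the transmembrane collagen Col23a1 (17.8 ± 5.85 TPM), and Col3a1 (17.3 ± 3.95 TPM) and Col1a1 (16.8 ± 5.11 TPM). Of these, Col23a1, Col3a1 and Col1a1 did not differ beyond their spread. Col6a2 stood at 14.6 ± 2.38 TPM and Col1a2 at 12.9 ± 2.84 TPM. The last 4 of the 12 highest members were Col5a1 at 7.03, Col15a1 at 6.98, Col4a5 at 6.36 and Col6a3 at 6.18 TPM. This order depended on the length chosen. With the longest transcript as the length, Col3a1 stood at 27.4 TPM, Col1a2 at 27.1 and Col6a2 at 22.3, while Col6a1 stood at 34.8, Col4a2 at 26.3, Col4a1 at 22.0 and Col1a1 at 16.8. On GRCm38, in the GENCODE release 21 annotation, Col6a1 spans chr10:76708792-76726168, Col23a1 chr11:51289920-51583918, Col3a1 chr1:45311538-45349706, Col1a1 chr11:94936224-94953042 and Col1a2 chr6:4504814-4541544. Col4a1 spans chr8:11198423-11312826 and Col4a2 chr8:11312805-11449287.

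Between 5 and 1 TPM lay 15 members. Among them were Col5a2 (4.65 TPM), Col6a4 (4.61), Col8a2 (4.11), Col19a1 (4.02), Col20a1 (3.38), Col14a1 (3.08), Col12a1 (2.76), Col5a3 (2.50) and Col18a1 (1.53). Another 16 members lay below 1 TPM, from Col25a1 at 0.952 and Col6a5 at 0.814 TPM down to Col2a1 at 0.00503 TPM. Among them, Col24a1 had 0.784 TPM, Col4a3 0.608, Col9a2 0.567, Col4a4 0.443, Col9a3 0.326, Col11a1 0.221 and Col11a2 0.202. Some collagens known from skin and cartilage stood near the bottom, but not all, since Col27a1, also known from cartilage, had 2.56 TPM. Col17a1, the hemidesmosome collagen of stratified epithelium, had 0.170 TPM, and Col7a1, the anchoring fibril of the epidermis, 0.0938 TPM, beside Col6a6, Col22a1 and Col26a1 at 0.0964, 0.0772 and 0.0607 TPM. Col2a1, the fibrillar collagen of cartilage, had 17 counts in 5 libraries, and its partner Col9a1 had 29 counts in 10 libraries. Those 2 genes did not pass the filter on low counts, so 41 of the 43 members were tested.

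Promoter sequence is given for the fibril genes Col3a1 and Col5a1, since Col3a1 followed Col1a1 and Col5a1 followed the fibroblast markers across libraries (values below). RefSeq, on GRCm38.p6, held a promoter for 34 of the 43 members. The first is the 250 bases before the start of Col3a1, at chr1:45311288-45311537 on the plus strand, with TATAAA in capitals. The second is the 250 bases before the start of Col5a1, at chr2:27886175-27886424 on the plus strand, with GGGCGG, or its reverse complement, in capitals.
Col3a1: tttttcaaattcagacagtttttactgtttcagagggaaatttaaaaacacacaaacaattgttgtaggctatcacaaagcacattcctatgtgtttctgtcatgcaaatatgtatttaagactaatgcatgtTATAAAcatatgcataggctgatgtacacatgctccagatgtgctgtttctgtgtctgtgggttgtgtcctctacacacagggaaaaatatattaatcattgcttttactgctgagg
Col5a1: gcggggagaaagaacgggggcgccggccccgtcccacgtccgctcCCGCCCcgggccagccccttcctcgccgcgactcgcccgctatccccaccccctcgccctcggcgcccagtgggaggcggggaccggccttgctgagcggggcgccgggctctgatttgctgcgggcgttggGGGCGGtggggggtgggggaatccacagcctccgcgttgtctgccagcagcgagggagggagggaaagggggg

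The composition of these windows differed. G and C made up 35.2% of the Col3a1 window and 76.4% of the Col5a1 window, against a median of 52.4% over all promoters. Both strands were searched for TATAAA, then for the box motif CCAAT and for the GC box motif GGGCGG, none of which overlapped another here. In the Col3a1 window TATAAA lay at -117 on the gene's strand, and neither of the other motifs was found. In the Col5a1 window GGGCGG lay at -73 on the gene's strand and at -205 on the other strand. Over 32851 promoters of this length, TATAAA was found in 12.4%, the motif CCAAT was found in 33.9%, and the motif GGGCGG was found in 32.7%. A match is a description of these letters only.

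Col4a1 and Col4a2, which encode the chains of the common type IV network, lie head to head on chromosome 8 on opposite strands. Their annotated first exons overlap by the 22 bases at chr8:11312805-11312826, shown on the plus strand because they tie the genes together.
Col4a1 and Col4a2 overlap: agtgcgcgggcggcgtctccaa

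Whether reads were counted by strand is not given in the sources used here, so those from that overlap could be shared. On the X chromosome Col4a5 and Col4a6 also face away from each other, with 1308 bases between their outermost starts. Of the other members, Col9a3 overlaps exons of Tcfl5 on the opposite strand, Col6a4 those of Gm36993 and Col6a6 those of Gm38314, and the values of these members are uncertain for that reason.

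The first question was whether broccoli powder changed collagen messages. No collagen gene passed an adjusted p of 0.05 (edgeR's quasi-likelihood test, Benjamini-Hochberg over 15652 genes) at any dose, in the mean of the doses, in the slope over dose or in the test for any difference among the diets. DESeq2 and limma voom called 0 of the 41 as well. The background was as low, since 0.00639% of all genes were called at 0.5%, 0% at 1.0%, 0.109% at 2.5%, 0% for any broccoli, 0.147% for the slope and 0.0256% for any difference. The lowest adjusted p of a member was 0.675 at 0.5%, 0.999 at 1.0% and 0.389 at 2.5%. For any broccoli it was 0.651, for the slope 0.485 and for any difference 0.706. In no member did all libraries of a dose lie below, or all above, the 0% libraries. Over all genes, the share entirely below was 0.275% at 0.5%, 0.0447% at 1.0% and 0.211% at 2.5%, and the share entirely above was 0.23%, 0.134% and 0.454%. On simulated data for 2.5% against 0%, with 200 genes changed at each fold, the test recovered 92% of genes changed 2-fold and 66% of genes changed 1.5-fold. Such rates depend on how many genes change, and in the real data 17 genes were called at 2.5%. Those rates are for genes of the whole table, not for the members. The tested collagen genes varied more between mice on 1 diet, with a median SD of 0.31 against 0.21 for all tested genes (log2 scale). Smaller changes were not simulated, so the rates do not tell how often such changes in members would be found.

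The members' log2 changes nonetheless lay mostly below 0. At 0.5%, 29 of 41 were lower (50.8% of all genes were), with a median of -0.09 against -0.00297 over all genes. At 1.0%, 31 of 41 were lower (50.6% of all genes), with a median of -0.12. At 2.5%, 30 of 41 were lower (53.1% of all genes), with a median of -0.12 against -0.01. The 3 doses share the 0% libraries, so these counts are not independent. An unadjusted p under 0.05 was reached by 6 members at 0.5% (7.14% of all genes), 7 at 1.0% (3.18%) and 6 at 2.5% (8.43%), and each of these changes was below 0. Over the doses together 32 of 41 were lower (51.1% of all genes). For any broccoli the count was 9 (6.58% of all genes), for the slope 5 (7.32%) and for any difference 4 (6.41%). Counting only changes below 0, 3.88% of all genes had such a p at 0.5%, 1.42% at 1.0%, 3.66% at 2.5%, 3.51% for any broccoli and 3.11% for the slope. Of the 41 genes, 19 had a value below 0 at all 3 doses and 3 (Col22a1, Col28a1 and Col6a5) a value above 0 at all 3.

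**Figure D2:**
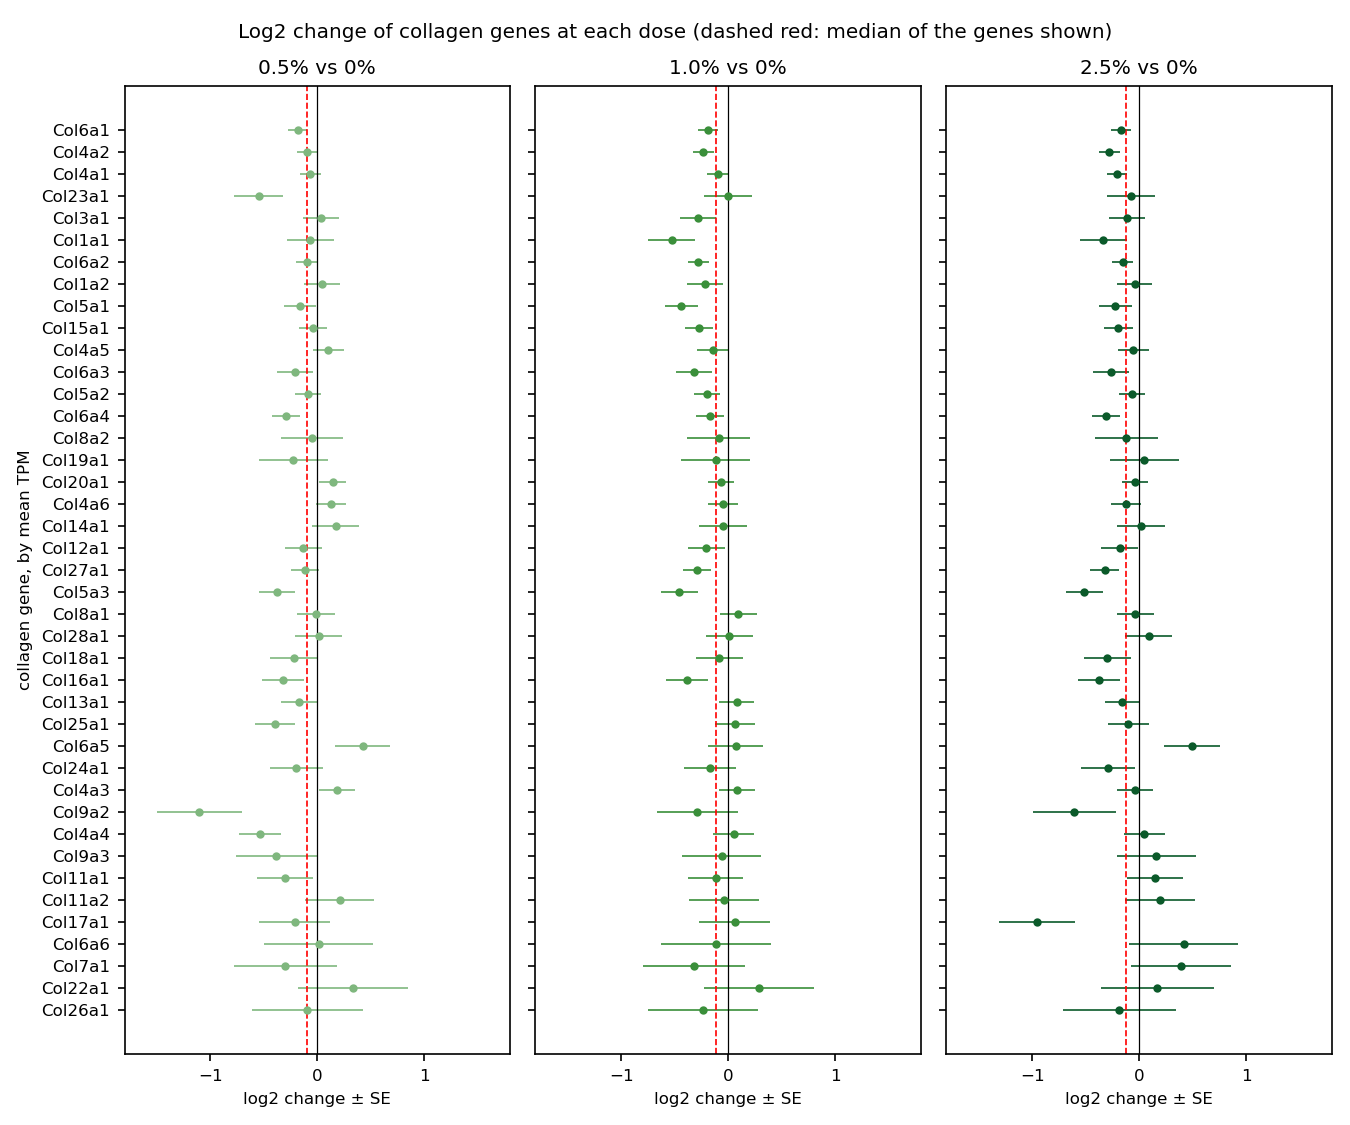
Log2 change (point) ± SE (line) of the 41 tested collagen genes at 0.5%, 1.0% and 2.5% broccoli powder against 0%, ordered by mean TPM, with the median of the genes shown as a dashed line. The medians are -0.09, -0.12 and -0.12, and the SE widens in the low genes at the bottom.

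The medians of -0.09, -0.12 and -0.12 were smaller in size than the spread between single mice, which is not the error of a difference between group means. Without the 6 libraries highest in small intestine markers, a cut chosen after seeing the data, the median at 2.5% was -0.27. That fit keeps only replicates 3, 4 and 5 at 2.5%. The spread is of single mice over all 21 libraries, so this median is not judged against it. The median deviation of the collagen genes from their own means, taken per library, had a within-diet SD of 0.164 on the log2 scale. It ran from -0.35 in 2.5% replicate 4, where 34 of 41 members were below their mean, to 0.24 in 2.5% replicate 1, where 6 were. The next lowest was -0.23, in 2.5% replicate 3. In 2.5% replicate 4 the smooth muscle markers also had their lowest mean of all libraries, 7.21 on the log2 CPM scale, and so did the fibroblast markers, 3.16. Their part in the result was not tested. By group, the smooth muscle mean was 7.99 ± 0.355 at 0% and 7.85 ± 0.466 at 2.5%, and the fibroblast mean 3.78 ± 0.274 and 3.63 ± 0.453 (SD). The summed smooth muscle markers ran from 3087 to 5691 CPM at 0% and from 2438 to 5770 CPM at 2.5%. The summed fibroblast markers ran from 305 to 421 CPM at 0% and from 250 to 457 CPM at 2.5%, and all 14 of them had counts.

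Of the fibril-forming genes, 10 were tested, and none passed. At 1.0% all 10 were lower, with a median log2 change of -0.25. At 2.5%, 8 were lower, with a median of -0.17. Col1a1, the main chain of type I collagen, had 40.1, 57.6 and 87.8 CPM as its lowest, median and highest values at 0%. It had 58.2, 68.2, 52.7, 41.0 and 64.4 CPM at 0.5%, then 34.1, 33.1, 50.3, 44.1 and 44.6 CPM at 1.0%, and 54.5, 66.3, 28.5, 31.3 and 55.2 CPM at 2.5%. The 2.5% mice fell into a pair of low values and 3 near the control median, and every dose overlapped 0%. Its log2 change was -0.53 ± 0.22 (SE) at 1.0% (edgeR adjusted p = 0.999) and -0.34 ± 0.22 at 2.5% (adjusted p = 0.689).

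Col1a2, which joins Col1a1 in the type I molecule, had 58.1, 76.4 and 99.3 CPM at 0% (lowest, median, highest). It had 73.3, 89.0, 67.1, 72.7 and 97.1 CPM at 0.5%, then 58.3, 59.8, 78.1, 66.4 and 70.2 at 1.0%, and 90.8, 97.9, 49.7, 52.1 and 85.1 at 2.5%. The same libraries as for Col1a1, 2.5% replicates 3 and 4, were low. Its change at 2.5% was -0.04 ± 0.17, and the sign turned when either of those libraries, or 0% replicate 5, was left out.

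Col3a1, the type III chain of distensible tissue, had 62.6, 80.8 and 112 CPM at 0%. Its values were 77.7, 94.5, 74.7, 84.0 and 96.5 CPM at 0.5%, then 62.7, 56.5, 74.8, 67.7 and 81.3 at 1.0%, and 93.4, 105, 49.4, 55.9 and 83.1 at 2.5%. Again 2.5% replicates 3 and 4 lay below every control and the other 3 did not. The change at 2.5% was -0.11 ± 0.17, with a 95% interval from -0.45 to 0.22.

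The type V chains set fibril diameter. Col5a1 had 20.2, 30.1 and 40.9 CPM at 0%, and 24.5, 19.1, 23.5, 22.8 and 26.4 CPM at 1.0%, where its log2 change was -0.44 ± 0.15 (edgeR adjusted p = 0.999). At 0.5% it had 22.1, 32.4, 26.8, 28.6 and 30.8 CPM, and at 2.5% 32.5, 30.7, 21.8, 20.9 and 29.1 CPM. All 5 values at 1.0% lay below the control median, and 1 of them lay below every control.

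Col5a3, the third type V chain, had the lowest unadjusted p of any member at 2.5% and over the doses. It had 6.15, 9.69 and 14.05 CPM at 0% (lowest, median, highest), and 7.01, 7.203, 9.05, 6.92 and 7.41 CPM at 0.5%. It had 8.602, 5.38, 6.80, 6.55 and 8.20 CPM at 1.0% and 7.88, 8.37, 5.82, 5.25 and 6.92 CPM at 2.5%. All 15 broccoli libraries lay below the control median, and 12 of them lay inside the control range. The log2 change was -0.38 ± 0.17 at 0.5%, -0.46 ± 0.17 at 1.0% and -0.51 ± 0.17 at 2.5%, and -0.45 ± 0.13 over the doses (edgeR adjusted p = 0.651). Col27a1, a fibrillar collagen best known from cartilage, was -0.30 ± 0.13 at 1.0% and -0.32 ± 0.13 at 2.5%.

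**Figure D3:**
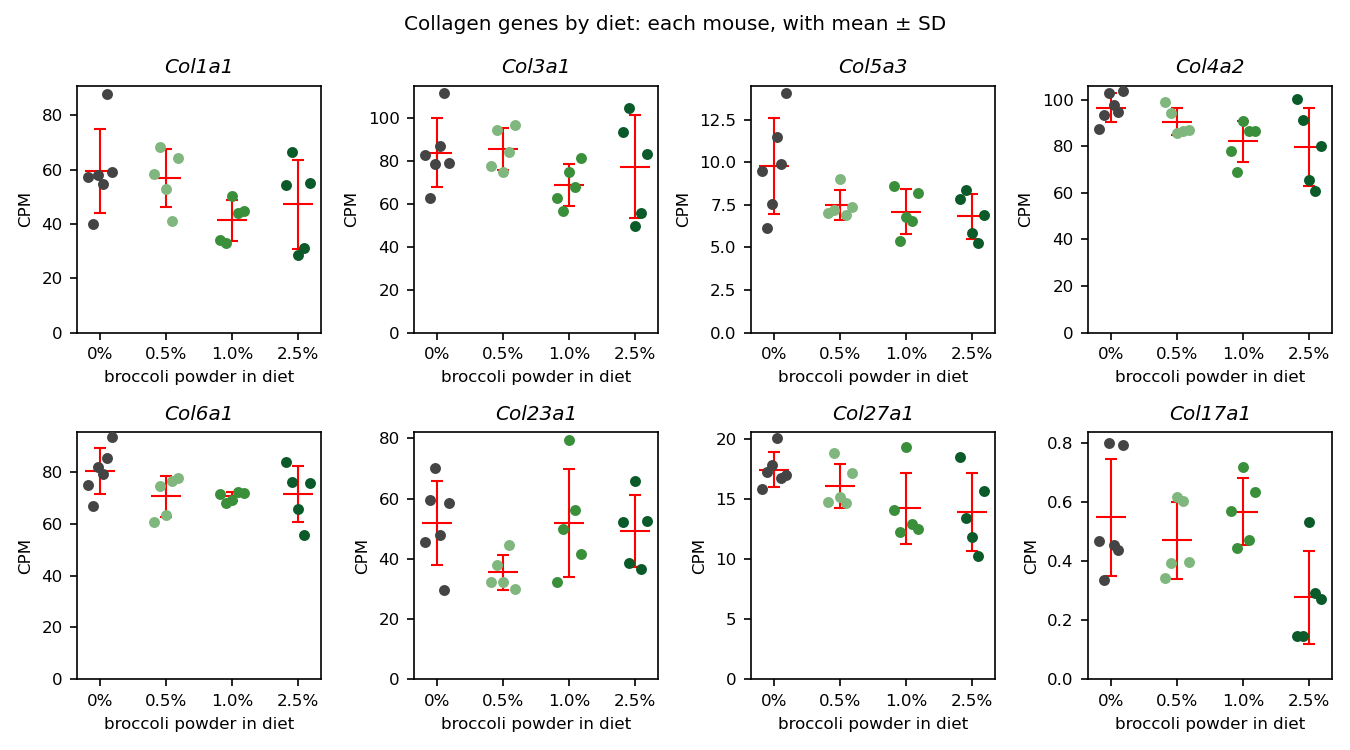
CPM of 8 collagen genes in each mouse by diet, with the mean ± SD in red and axes from 0; 6 mice at 0% and 5 at each other dose. Col5a3 and Col4a2 have lower means in all broccoli groups than at 0%, with overlapping points, and the 2.5% points of Col1a1 and Col3a1 fall into a low pair and 3 higher ones.

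Of the basement membrane network, 6 genes were tested, and 5 had a lower value at 2.5%, with a median of -0.09. Col4a2 had 87.6, 96.2 and 104 CPM at 0%. Its values were 99.0, 94.4, 85.6, 86.4 and 87.0 CPM at 0.5%, then 77.8, 69.0, 90.9, 86.3 and 86.6 at 1.0%, and 100.4, 91.4, 65.6, 60.9 and 80 at 2.5%. At each dose 3 or more libraries lay under the lowest control, while 2.5% replicates 1 and 2, both high in small intestine markers, lay inside the control range. Among the other broccoli libraries of the 6 highest in those markers, 0.5% replicate 1 (99.0 CPM) lay inside that range. The others, 0.5% replicate 4 (86.4 CPM) and 1.0% replicate 1 (77.8 CPM), lay under it. The change was -0.23 ± 0.10 at 1.0% and -0.28 ± 0.10 at 2.5% (edgeR adjusted p = 0.999 and 0.428), and the slope was -0.11 ± 0.04 per 1% of powder (adjusted p = 0.485).

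Without the 6 libraries highest in small intestine markers, a cut chosen after seeing the data, Col4a2 was called. At 2.5% that cut takes out replicates 1 and 2, which had the highest Col4a2 values of that diet (100.4 and 91.4 CPM). Its log2 change at 2.5% was then -0.49 ± 0.10 (edgeR adjusted p = 0.0225, with 0.769% of 15734 genes called), and its slope was -0.20 ± 0.04 per 1% (adjusted p = 0.0153, with 0.642% called). That fit holds 5 mice at 0% and 3 at 2.5%. Of those 3, replicate 4 has the lowest muscle and fibroblast markers of all libraries and replicate 3 a fibroblast mean of 3.21, and their part in the result was not tested. Leaving out 10 libraries by a lower limit on those markers gave -0.48 at 2.5% (adjusted p = 0.0719) and a slope of -0.19 (adjusted p = 0.0319). That fit holds 11 libraries and the same 2.5% replicates 3, 4 and 5, so it is not a separate check of that dose. Its limit fell between marker means of 2.48 and 2.54. With all 21 libraries and the smooth muscle mean as a covariate, the change at 2.5% was -0.24 ± 0.08 (adjusted p = 0.333).

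The other members were read in the same fit of 15 libraries, with the cut chosen after seeing the data. At 2.5%, 34 of the 41 were lower (51.9% of all genes in that fit), with a median of -0.27 in place of -0.12. An unadjusted p under 0.05 was reached by 10, all lower, where 14.1% of all genes had such a p and 6.91% had it with a lower value. For the slope 34 were lower (52.2% of all genes), with a median of -0.12 in place of -0.05, and 12 had such a p, all lower (12.6% of all genes, and 6.01% with a lower value). Beside Col4a2, the 9 members with such a p at 2.5% had edgeR adjusted p-values between 0.150 and 0.335, so none was called. Among them Col5a3 was -0.70 in place of -0.51, Col1a1 -0.49 in place of -0.34, Col27a1 -0.48 in place of -0.32 and Col15a1 -0.36 in place of -0.19. Col17a1 went the other way, to -0.63 in place of -0.96.

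Col4a1 had 69.8, 79.2 and 90.7 CPM at 0%. It had 69.7, 72.5, 75.4, 77.8 and 84.0 CPM at 0.5%, then 73.9, 65.4, 78.3, 73.9 and 79.4 at 1.0%, and 84.5, 76.6, 53.9, 58.3 and 71.4 at 2.5%. Only 2.5% replicates 3 and 4 and 1 library each at 0.5% and 1.0% lay under the controls. The change at 2.5% was -0.21 ± 0.10 (edgeR adjusted p = 0.572). Col4a4, a chain of the kidney-type network, had 1.68, 2.35 and 2.88 CPM at 0% and 1.09, 1.25, 1.58, 2.08 and 1.97 at 0.5%, a change of -0.53 ± 0.20 (edgeR adjusted p = 0.675). At 2.5% it had 2.99, 2.81, 2.33, 1.66 and 2.17 CPM, a change of 0.05 ± 0.19.

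Col4a5, found in the basement membrane of smooth muscle with Col4a6, had 14.4, 20.8 and 26.4 CPM at 0%. It had 19.7, 23.0, 23.3, 22.7 and 20.5 CPM at 0.5%, then 16.5, 18.8, 23.3, 19.5 and 14.1 at 1.0%, and 21.6, 23.2, 19.7, 13.3 and 20.2 at 2.5%. The doses lay across the control range, and the change at 2.5% was -0.06 ± 0.15.

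Among the beaded filament genes, Col6a1 had 67.0, 80.6 and 93.4 CPM at 0%. Its values were 60.8, 74.4, 63.6, 76.6 and 77.8 CPM at 0.5%, then 71.4, 68.1, 69.1, 72.4 and 71.8 at 1.0%, and 83.7, 75.98, 65.8, 55.8 and 75.6 at 2.5%. Of the 15 broccoli libraries only 2.5% replicate 1 exceeded the control median. The change over the doses was -0.18 ± 0.07 (edgeR adjusted p = 0.695), and at 2.5% it was -0.17 ± 0.09.

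Col6a2 had 57.0, 60.4 and 68.9 CPM at 0%. It had 61.6, 63.5, 56.1, 53.2 and 55.3 CPM at 0.5%, then 59.6, 45.5, 48.5, 51.4 and 49.99 at 1.0%, and 66.5, 63.8, 43.1, 44.2 and 60.0 at 2.5%. At 1.0%, 4 of 5 libraries lay below every control, and the change was -0.28 ± 0.10 (edgeR adjusted p = 0.999). Col6a3, the largest type VI chain, had 22.9, 37.5 and 55.3 CPM at 0%, with 27.7, 34.6, 33.9, 32.6 and 38.9 CPM at 0.5%. It had 32.9, 27.0, 30.7, 29.4 and 35.7 CPM at 1.0% and 42.9, 34.0, 25.4, 24.1 and 35.7 at 2.5%, a change of -0.26 ± 0.17, and all 3 doses lay inside the control range. Of its close relatives, Col6a4 was -0.29 ± 0.13 at 0.5% and -0.31 ± 0.13 at 2.5%, and Col6a5 was 0.49 ± 0.26 at 2.5%, and neither passed.

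Of the 4 transmembrane collagens, all had values below 0 at 0.5%, above 0 at 1.0% by at most 0.08, and below 0 at 2.5%, and none passed. Col23a1 had 29.6, 53.2 and 70.1 CPM at 0%. Its values were 32.2, 38.0, 32.3, 44.6 and 29.9 CPM at 0.5%, then 32.2, 49.8, 79.4, 56.1 and 41.7 at 1.0%, and 52.2, 38.7, 65.8, 36.7 and 52.6 at 2.5%. The 0.5% mice all lay below the control median, with a change of -0.55 ± 0.23 (edgeR adjusted p = 0.685), while the change at 2.5% was -0.07 ± 0.22. Col17a1, which anchors epithelial cells to the basement membrane in hemidesmosomes, had 0.335, 0.460 and 0.801 CPM at 0% and 0.146, 0.145, 0.532, 0.292 and 0.271 CPM at 2.5%. There 4 of 5 mice lay below every control, and the change was -0.96 ± 0.36 (edgeR adjusted p = 0.452) on 409 counts over all libraries.

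Of the multiplexins, whose C-terminal pieces are known as inhibitors of vessel growth, Col15a1 was -0.27 ± 0.13 at 1.0% and -0.19 ± 0.13 at 2.5%. Its CPM values were 19.6, 22.9 and 25.0 at 0% (lowest, median, highest), 22.4, 24.0, 21.9, 18.8 and 22.2 at 0.5%, 23.0, 13.6, 16.01, 17.1 and 23.0 at 1.0%, and 22.7, 24.4, 15.9, 15.9 and 19.3 at 2.5%. At 1.0% and at 2.5%, 3 of 5 mice lay below every control. Among the fibril-associated members, Col9a2 had the most negative value of any member at 0.5%, -1.10 ± 0.40 (edgeR adjusted p = 0.675), from 0.682, 0.564, 0.160, 0.526 and 0.556 CPM against 0.547, 0.986 and 2.18 CPM (lowest, median, highest) at 0%. Col16a1, found in dense connective tissue, was -0.36 ± 0.15 over the doses (edgeR adjusted p = 0.703). Of the 8 fibril-associated genes 4 were lower at 2.5%, both multiplexins and both type VIII chains were lower, and Col7a1 was higher by 0.39, none past the threshold.

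The spread between mice on 1 diet was compared as a description. The median within-diet SD was 0.31 on the log2 scale for the tested collagen genes and 0.21 for all tested genes, and the median range of the 4 diet means was 0.29 and 0.19. The steadiest members were Col6a1 (SD 0.163, at the 34.7th percentile of tested genes), Col4a1 (0.172) and Col4a2 (0.181). The least steady were the scarce Col6a6 (0.872), Col7a1 (0.866) and Col22a1 (0.823). Col8a2, at 4.11 TPM, had an SD of 0.518.

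Collagen genes were compared across the 21 libraries in 14 pairs, 8 of chains of the same collagen type and 6 across types, on log2 CPM with p-values from 100000 permutations and adjusted over the pairs. The libraries share depth and tissue composition, so these relations are descriptions of the samples. Of the 14 pairs, 11 passed by r and by rho, with permutation adjusted p-values between 3.5e-05 and 0.0148 for r and between 7e-05 and 0.0458 for rho. Col1a1 with Col1a2 gave Pearson's r = 0.91 and Spearman's rho = 0.87 (permutation adjusted p = 3.5e-05 for r, from a raw p of 1e-05, the smallest that the permutations can give), 0.85 without the 2 libraries farthest from the median and 0.93 with diet means taken off. Col1a1 with Col3a1 gave r = 0.92 and rho = 0.82, with 0.87 and 0.91 under the same changes. Col6a1 with Col6a3 gave r = 0.87 and rho = 0.87, with 0.79 and 0.86. Col4a5 with Col4a6 gave r = 0.80 and rho = 0.64, with 0.72 and 0.80, and Col4a1 with Col4a2 gave r = 0.79 and rho = 0.60, with 0.55 and 0.75.

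Other pairs were less tied. Col5a1 with Col5a2 gave r = 0.71 and rho = 0.75, and Col15a1 with Col18a1 gave r = 0.62 and rho = 0.72. Col6a1 with Col6a2 gave r = 0.64 and rho = 0.61, Col1a1 with Col6a1 gave r = 0.59 and rho = 0.61, and Col12a1 with Col14a1 gave r = 0.54 and rho = 0.46. These last 3 rested on the 2 libraries farthest from the median, without which r was 0.47, 0.44 and 0.43 and no longer passed. Col1a1 with Col4a1 gave r = 0.74 and rho = 0.54. The pairs that did not pass were Col4a3 with Col4a4 (r = -0.05, permutation p = 0.812), Col8a1 with Col8a2 (r = 0.06, p = 0.807) and Col1a1 with Col17a1 (r = -0.15, p = 0.525). Counts per library were 61 to 183 for Col4a3, 35 to 130 for Col4a4 and 5 to 40 for Col17a1. They were 165 to 463 for Col8a1 and 178 to 694 for Col8a2. The part of low counts in these values was not tested.

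**Figure D4:**
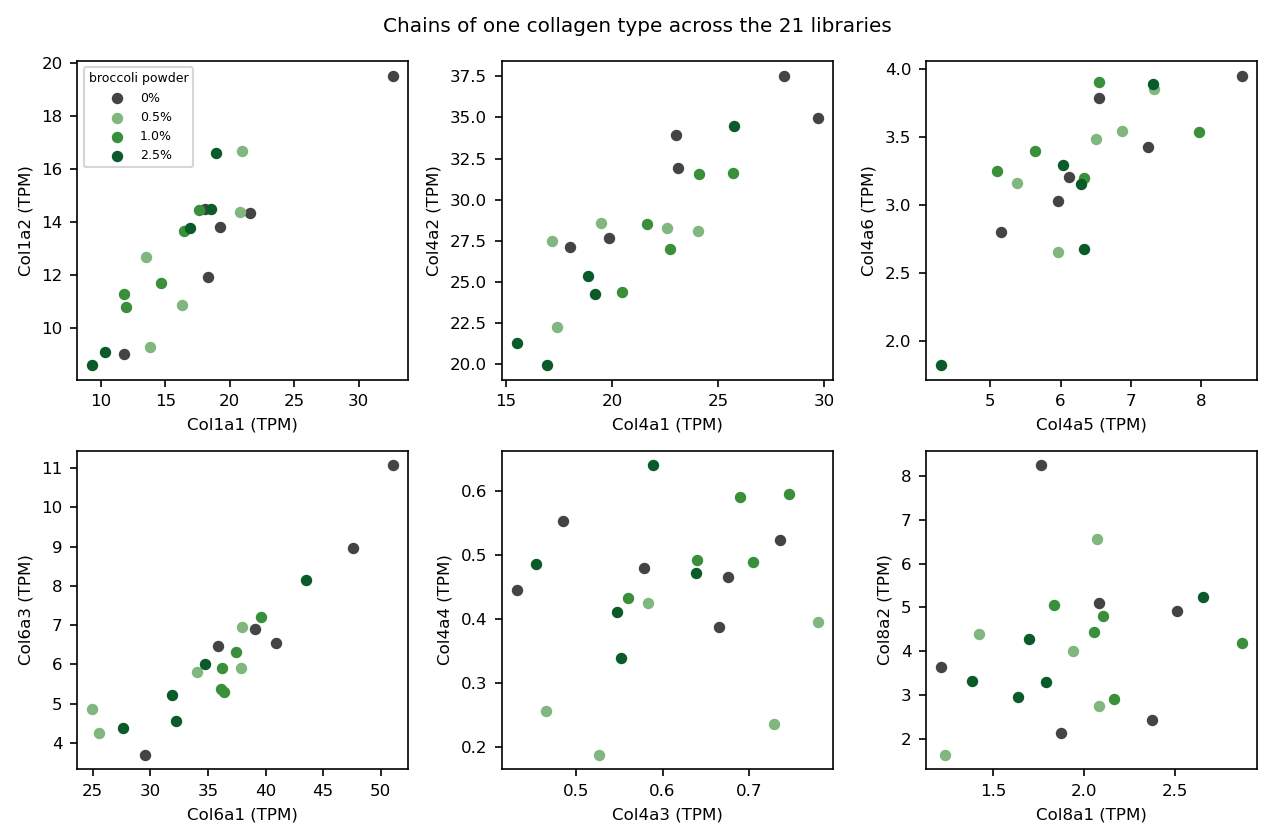
TPM of paired collagen chains in the 21 libraries, coloured by diet; each axis is linear, with its own range. Col1a1 and Col1a2, and Col6a1 and Col6a3, line up closely (r = 0.91 and 0.87 on log2 CPM), while Col4a3 and Col4a4, and Col8a1 and Col8a2, do not (r = -0.05 and 0.06).

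Ratios of chain messages per length were steady for some molecules. The Col4a1 to Col4a2 ratio was 0.762 ± 0.0667 (SD, n = 21), and the Col6a1 to Col6a2 ratio 2.48 ± 0.267. The Col4a5 to Col4a6 ratio was 1.95 ± 0.23, and the Col6a1 to Col6a3 ratio 6.00 ± 0.75. Col8a1 to Col8a2 ran from 0.214 to 0.973. The type I molecule is known to hold more Col1a1 than Col1a2 chains, and the Col1a1 to Col1a2 message ratio was 1.29 ± 0.177. By diet it was 1.44 ± 0.159 at 0%, 1.35 ± 0.187 at 0.5%, 1.17 ± 0.087 at 1.0% and 1.17 ± 0.0788 at 2.5%, and was picked out after being seen, so it was not tested. Which of these messages was the higher depended on length, since with the longest transcript the ratio was 0.616 ± 0.0842 over all libraries.

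Each of the 41 tested genes was set against the mean of 8 cell type marker lists across the 21 libraries, in 328 comparisons adjusted together, of which 38 passed. Fibroblast markers gave 17 of them, all positive. They included Col14a1 (r = 0.84, rho = 0.83), a fibril-associated collagen, Col4a1 (r = 0.83, rho = 0.83), Col6a3 (r = 0.81, rho = 0.79), Col5a1 (r = 0.80, rho = 0.84) and Col6a1 (r = 0.79, rho = 0.78), with permutation adjusted p-values between 0.00109 and 0.00164. Without the 2 farthest libraries these were 0.79, 0.78, 0.76, 0.78 and 0.72, and with diet means off 0.90, 0.87, 0.82, 0.87 and 0.82. Col3a1 (r = 0.73), Col1a2 (r = 0.68) and Col1a1 (r = 0.60) also passed by r with this list, although for Col1a1 the adjusted p of rho was 0.0947.

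Smooth muscle markers gave 7 positive relations. The 4 highest were Col12a1 (r = 0.74, rho = 0.70), Col8a2 (r = 0.73, rho = 0.76), Col19a1 (r = 0.72, rho = 0.80) and Col4a2 (r = 0.70, rho = 0.62). Without the 2 farthest libraries they were 0.62, 0.75, 0.81 and 0.52, with diet means off 0.74, 0.75, 0.77 and 0.75, and for Col4a2 the adjusted p of rho was 0.0533. Markers of enteric neurons and glia gave 9, among them Col25a1 (r = 0.74, rho = 0.68), a collagen known from neurons, and Col23a1 (r = 0.65, rho = 0.64), with 0.76 and 0.69 without the 2 farthest libraries. The neural and muscle lists themselves moved together (r = 0.81), so a relation with one is not separate from the other. The fibroblast and smooth muscle lists were less alike (r = 0.41).

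Epithelial markers gave 2 negative relations, with Col4a5 (r = -0.79, rho = -0.71, permutation adjusted p = 0.00131) and Col4a6 (r = -0.61, rho = -0.44, permutation adjusted p = 0.0283). That for Col4a5 was -0.74 and that for Col4a6 -0.40 without the 2 farthest libraries, and the adjusted p of rho for Col4a6 was 0.234. The rest were Col15a1 with fat cell markers (r = 0.66, rho = 0.55), Col4a2 with endothelial markers (r = 0.58, rho = 0.51) and Col16a1 with mesothelial markers (r = -0.60, rho = -0.70), and for the first 2 of these rho did not pass (adjusted p = 0.104 and 0.156). The small intestine list gave 0. The count of 38 was not firm, since leaving out 1 library gave between 21 and 53, with 24 without 0% replicate 3, 22 without 2.5% replicate 1 and 21 without 2.5% replicate 4.

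**Figure D5:**
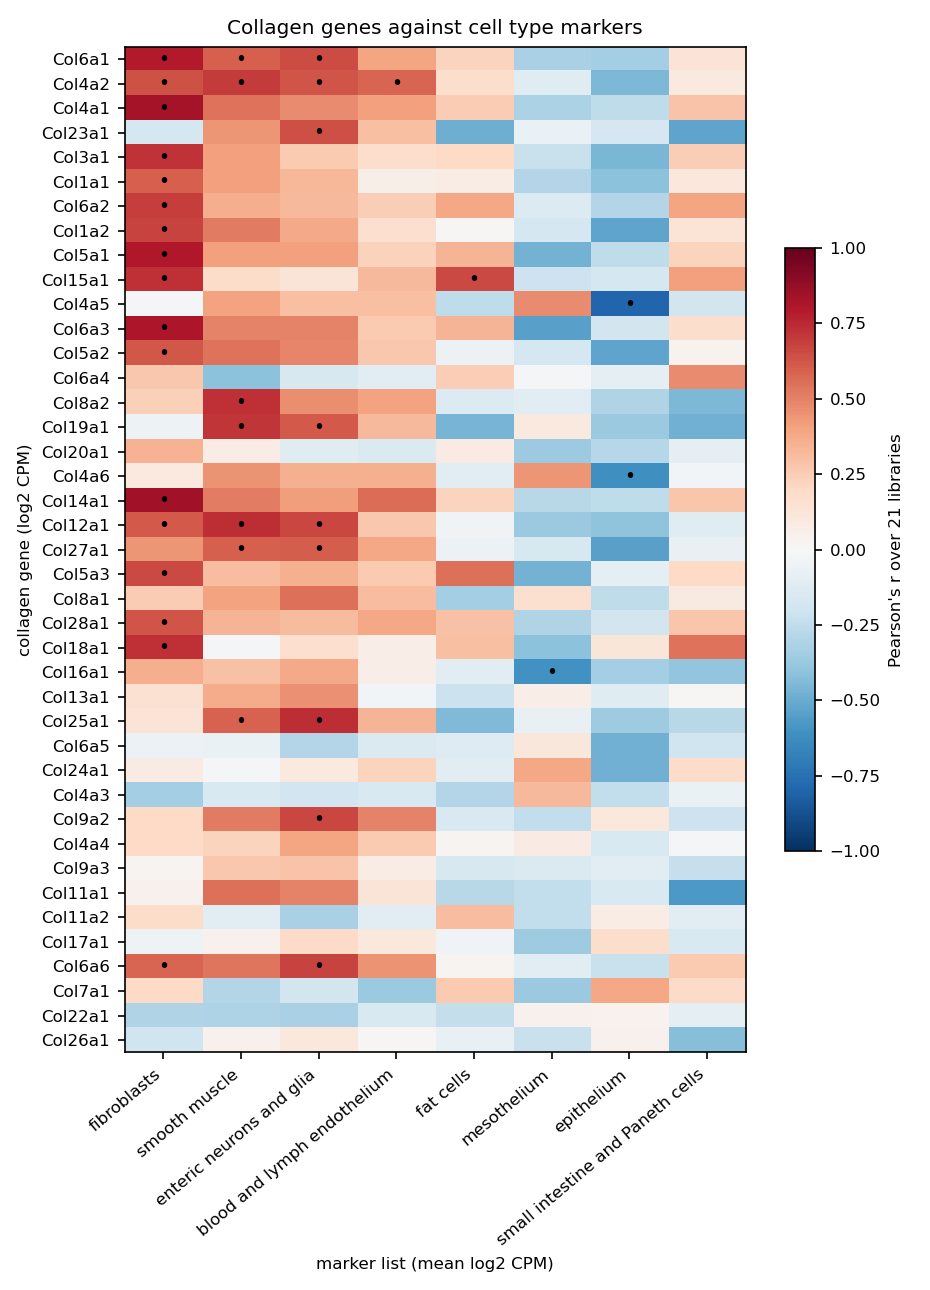
Pearson's r of each tested collagen gene (log2 CPM) with the mean log2 CPM of 8 marker lists over 21 libraries, red positive and blue negative; a dot marks an adjusted permutation p under 0.05. The fibroblast column holds 17 dots, the neural column 9 and the smooth muscle column 7, while Col4a5 and Col4a6 are blue against epithelium.

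Genes outside the family with the most similar pattern, by Pearson's r on log2 CPM with diet means taken off over 21 libraries and 10934 genes, were listed for 3 members of differing role. For Col4a1 they were Lrrc32 (0.94), Fstl1 (0.92), Fbn1 (0.90), Fndc1 (0.89) and Sparc (0.86). For Col1a1 they were Lrrc32 (0.79), Fstl1 (0.78), Lrrc57 (0.77), Rab7b (0.77) and Loxl1 (0.76). Lrrc32 and Fstl1 thus headed both lists. Those of Col17a1 included Zfp472 (0.74), Trmt1 (0.73), Epn3 (0.70) and Ip6k2 (0.70). That list depended on taking the diet means off, since r as measured was 0.44 for Zfp472, 0.54 for Trmt1, 0.13 for Epn3 and 0.34 for Ip6k2, whereas the named neighbours of Col1a1 and Col4a1 had 0.70 or more as measured. Col23a1 was added after its values were seen, and its nearest genes were Runx1t1 (0.92), Sntg2 (0.90), Gria1 (0.89), Meis1 (0.89) and Svil (0.88).

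The genes that make, bind and remove collagen were then read at 2.5% against 0%. Over the 6 pathway lists and the 11 marker lists, 202 genes were tested and edgeR called 0 in any comparison. At 2.5%, 14 of the 202 had an unadjusted p under 0.05, where 8.43% of all genes had such a p. That share is also the background for the counts by list below. DESeq2 called Hbb-bs, a red blood cell globin gene, at 2.5% (-0.77, adjusted p = 0.0321), and Colgalt2 over the doses (-0.64, adjusted p = 0.0146) and for any difference (adjusted p = 0.022), and limma voom called 0. Of all 15652 genes DESeq2 called 84 at 2.5%, 10 over the doses and 68 for any difference. Of 29 genes of chain modification, folding, secretion and crosslinking, 24 were lower and 5 higher, with a median of -0.14. P4hb, a subunit of the prolyl hydroxylase, had a mean of 370.4 CPM and a change of -0.08 ± 0.10. Mia3, which loads procollagen into transport carriers, had 79.2 CPM and a change of -0.00128 ± 0.07. Serpinh1, the collagen chaperone, had 72.5 CPM and -0.16 ± 0.16. Colgalt1, which adds galactose to hydroxylysine, had 53.6 CPM and -0.03 ± 0.06. Its paralog Colgalt2, named here after its values were seen, had the only unadjusted p under 0.05 of the list, at -0.57 ± 0.17 (edgeR adjusted p = 0.307).

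All 9 tested receptors were lower, with a median of -0.10. The 4 most abundant were Itgb1 (296.8 CPM, -0.06 ± 0.08), Itga1 (131 CPM, -0.11 ± 0.16), Ddr2 (101 CPM, -0.10 ± 0.14) and Itga2 (66.0 CPM, -0.14 ± 0.19). Of 10 tested genes of collagen breakdown and its inhibitors, 8 were lower, with a median of -0.13. The collagenase gene Mmp13, named after its values were seen, was the lone gene with an unadjusted p under 0.05, at -1.39 ± 0.54 (edgeR adjusted p = 0.499). The more abundant Mmp15 (-0.12 ± 0.10), Timp2 (-0.13 ± 0.14), Mmp14 (-0.16 ± 0.11) and Ctsl (-0.07 ± 0.12) lay nearer 0.

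Of 18 genes of matrix proteins that sit on fibrils, 17 were lower, with a median of -0.22, and 1 had an unadjusted p under 0.05. Sparc, a collagen-binding protein at 154 CPM, was -0.22 ± 0.17. Postn (-0.08 ± 0.16), Prelp (-0.17 ± 0.16) and the fibronectin gene Fn1 (-0.19 ± 0.19) did not pass either. The gene with the low p was Emilin1, an elastic fibre protein, at -0.28 ± 0.12 (edgeR adjusted p = 0.507). Among 15 genes of non-collagen basement membrane proteins, 12 were lower, with a median of -0.07. An unadjusted p under 0.05 was reached by the laminin gene Lama5 (-0.47 ± 0.15, edgeR adjusted p = 0.324), the perlecan gene Hspg2 (-0.28 ± 0.13) and Pxdn (-0.29 ± 0.13), which crosslinks the type IV network. The more abundant Nid1 (-0.20 ± 0.14), Lamb3 (-0.07 ± 0.12) and Lamc1 (-0.10 ± 0.09) did not reach it, and Agrn was 0.08 ± 0.08. Signalling genes of the TGF-beta pathway, a known inducer of collagen genes, were evenly split, with 9 of 18 higher and a median of 0.01. Skil, a feedback target of the pathway, was 0.14 ± 0.12, Smad7 0.19 ± 0.11, Tgfbr2 0.04 ± 0.07 and Smad4 0.05 ± 0.08. The 4 genes of that list with an unadjusted p under 0.05 were Ltbp3 (0.43 ± 0.13, edgeR adjusted p = 0.262), Ltbp2 (-0.74 ± 0.34), Smad3 (-0.15 ± 0.07) and Pmepa1 (-0.52 ± 0.25), all named after their values were seen.

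None of the list genes passed at the lower doses either. Lower values were held by 20 of 29 processing genes at 0.5% and 18 at 1.0%, by 7 of 9 receptors at both, and by 8 and 9 of 10 breakdown genes. They were held by 14 and 15 of 18 fibril-bound matrix genes, by 13 of 15 non-collagen basement membrane genes at both doses, and by 11 of 18 TGF-beta genes at both. Among the markers of cell types at 2.5%, lower values were held by 11 of 14 fibroblast genes (median -0.05), 10 of 11 smooth muscle genes (median -0.12) and 11 of 12 genes of enteric neurons and glia (median -0.19). The macrophage list had 8 of 9 lower (median -0.15), endothelium 6 of 10 (-0.05), fat cells 8 of 10 (-0.67), blood 4 of 4 (-0.67) and the small intestine list 8 of 12 (-0.40). Epithelium had 5 of 11 lower (0.03), B and plasma cells 3 of 7 (0.02) and mesothelium 1 of 3 (0.16). Muscle, nerve, fibroblast, macrophage, endothelium, fat cell, blood and small intestine medians lay below 0, as did the collagen median of -0.12 at 2.5%. Those of epithelium, B and plasma cells and mesothelium lay above 0. With the smooth muscle mean as a covariate that collagen median was -0.10. The part of these cell types in it was not tested.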

How the data were processed

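Cecal messenger RNA of 21 mice was sequenced with a strand-marking ligation kit, as the labels' protocols state. The deposited file holds the authors' unnormalized read counts by gene, mapped to mm10 per the submitters' processing notes. Aligner, counter, annotation and strand setting: not given in the sources used here. Diets came from the labels, which number separate animals; cages are not given. Of 25361 listed genes, 25268 identifiers were found in GENCODE mouse release 21, which gave symbols, exon-union lengths and TPM. The collagen genes and all gene lists were chosen with earlier results of these data known.

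Counts were fitted in 1 model of all 21 libraries with edgeR 4.0.16 in R 4.3.3 (robust quasi-likelihood, TMM scaling, filterByExpr by diet), with Benjamini-Hochberg adjustment over 15652 genes and calls at an adjusted p under 0.05. CPM are scaled by TMM, and log2 CPM use a prior count of 2. Alternatives were DESeq2 1.42.0, limma 3.58.1 voom, other scalings and filters, left-out libraries and a smooth muscle covariate. The test was also run on simulated data, with 3 false calls among 15652 genes. No within-diet pair of libraries agreed within sampling noise (lowest chi-square per degree of freedom 17.1 over 45 pairs). Permutation tests were two-sided.

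Values per library are given for the 12 members of highest mean TPM and for any called. The 5 members of lowest unadjusted p in each comparison, up to 4 of the most abundant genes of each pathway list, and the 5 nearest genes of Col1a1, Col4a1 and Col17a1 (mean of at least 5 CPM) are named, except 1 gene that is not reported here.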

Additional observations from a re-analysis of the deposited data

Results flagged for a closer look

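In 80 groups of 5 or 6 mice (19 collagen genes and the collagen share, each in 4 diets), 5 held a library far from the rest of its diet by Dixon's 95% value, and chance gives about 1 in 20. Col6a4 had 24.6 CPM in 1.0% replicate 1 against 15.9 to 17.9 in the rest of its group, and that library also has the highest small intestine marker mean, 6.41. Col6a4 had 20.6 CPM in 0.5% replicate 2 against 15.1 to 16.6. Col27a1 had 19.35 CPM in 1.0% replicate 3 against 12.3 to 14.1. Col5a3 had 9.05 CPM in 0.5% replicate 3 against 6.92 to 7.41. Col16a1 had 3.04 CPM in 1.0% replicate 1 against 4.20 to 4.65.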

How the results depend on the processing

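No collagen gene was called in any diet comparison with RLE scaling, library totals, no filter on low counts, DESeq2, limma voom, only the groups compared, the smooth muscle covariate, dose as a rank, no animals numbered above 70, or any 1 library left out. The exceptions were the fits without libraries high in small intestine markers. Without the 6 highest (chosen after seeing the data), 1 gene, Col4a2, was called at 2.5% (-0.49) and 1 in the slope (-0.20). Without 10 libraries above a mean of 2.5, 1 was called in the slope (Col4a2, -0.19) and none at 2.5%, where the median of the collagen genes was -0.29 in place of -0.12; the median at 0.5% was then 0.00779 in place of -0.09. Those fits hold fewer libraries, and the cause was not tested. Over all genes, 17 were called at 2.5% by edgeR, 84 by DESeq2, 7 by voom and 121 without the 6 libraries.

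Leaving out 1 library moved the median from -0.14 to -0.07 at 0.5%, -0.18 to -0.06 at 1.0% and -0.21 to -0.06 at 2.5%, and the relations with marker lists that passed from 21 to 53. Single-gene changes with 1 library left out were followed at 2.5% only for the members highest in mean TPM or lowest in unadjusted p. The signs of the other tested members were not examined. Among those followed, the sign of 4 small changes turned. Col1a2 ran from -0.16 to 0.0743 (0.0414 without 0% replicate 5, 0.0743 without 2.5% replicate 3, 0.0629 without 2.5% replicate 4). Col3a1 ran from -0.25 to 0.0104. Col23a1 ran from -0.20 to 0.0319 (0.0141 without 2.5% replicate 4), and Col4a5 from -0.14 to 0.0551 (0.033 without 0% replicate 3). Col23a1 was 0.0465 with the muscle covariate. Library totals as scaling gave a median of -0.19 for the collagen genes at 0.5% and -0.09 for all genes.

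Among the pairs, Col4a3 with Col4a4 was 0.21 with diet means off, 0.00296 without the 6 libraries and from -0.18 to 0.12 with 1 library out. Col1a1 with Col17a1 was 0.0865 without the 10 and 0.21 without the 6, and Col8a1 with Col8a2 ran from -0.0519 to 0.17. Without the 10, Col15a1 with Col18a1 (0.59) and Col12a1 with Col14a1 (0.63) no longer passed, nor did the latter without 2.5% replicate 4 (0.43). The collagen share without mitochondrial transcripts was 0.112%. No paired analysis was possible because the labels give no replicate numbers shared between diets.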
